A study of Mus musculus with 18 samples.

Results

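The genes described are those of the unfolded protein response and the integrated stress response, measured as messenger RNA (mRNA) in mouse embryonic stem cells after DNA damage. A fixed list of 56 genes was matched to array probes that carry a single gene symbol, and 54 were measured among 19935 genes in all. Where a gene had several probes, the brightest over the 18 arrays was used. Eif2s1 and Pycr1 were not analysed here as levels. The 54 genes comprise 5 stress sensors and kinases, 8 transcription factors, 5 feedback and output genes, 8 genes of amino acid synthesis, 6 of amino acid transport, 7 aminoacyl-tRNA synthetases and 15 chaperones and degradation factors of the endoplasmic reticulum (ER).

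In both responses, stress slows translation while selected mRNAs are made. The kinases Eif2ak1 (HRI, heme and mitochondrial stress), Eif2ak2 (PKR, double-stranded RNA), Eif2ak3 (PERK, unfolded ER protein) and Eif2ak4 (GCN2, amino acid shortage) phosphorylate the initiation factor eIF2, which lowers general translation and favours translation of ATF4. ATF4 then acts on genes that make, import and load amino acids. The other branches of the unfolded protein response run through ATF6, which is cut in the Golgi, and through Ern1 (IRE1), which splices Xbp1 mRNA. Both act on chaperones and on the machinery that removes misfolded proteins from the ER. Much of this control lies in translation, phosphorylation, cleavage and splicing, which a gene-level mRNA array does not measure.

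R1E is a mouse embryonic stem cell line for which the labels give no strain or p53 genotype. The R1E groups were a mock treatment, 8 hours of the topoisomerase II poison adriamycin (doxorubicin) at 0.5 µM, and ultraviolet light (UV) at 25 J/m2 with 8 hours as the stated time, each on 4 arrays. The p53-/- cells are embryonic stem cells of a 129X1 x 129S1 background, left untreated or exposed to 0.5 µM of the same drug over 8 hours, each on 3 arrays. All cells were grown with serum, added amino acids and glutamine, and leukemia inhibitory factor. The labels do not say whether the p53-/- cells are 1 clone, nor whether replicates were independent cultures, and the p-values therefore measure only how far these arrays spread, which may be technical. The level of Trp53 was not analysed here, so the genotype rests on its label.

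Levels are log2 intensities as deposited, and the number of arrays limits their precision. A change is the difference of group means on that log2 scale, given with its moderated standard error (SE), and a gene was called at an adjusted p below 0.05 (limma, Benjamini-Hochberg adjustment over all 19935 genes). The 2 sets of arrays were normalized separately, so their levels are not set against each other. Array medians over all probes lay between 5.30 and 5.61. Centring, here and below, used the median of the 19935 genes of each array. It would move every change by -0.13 for adriamycin in R1E, by -0.08 for UV and by -0.09 in p53-/- cells. All 10 stem cell markers lay above the median gene in every group, yet their summed linear intensity fell from 25655 to 26744 in mock R1E arrays to 17563 to 19153 after adriamycin and 22015 to 22800 after UV. Of these 10 markers, 9 were called lower after adriamycin and 6 after UV in R1E. Over all genes, 25.6% were called lower and 22.1% higher with adriamycin in R1E, and 21.2% and 22.6% with UV. In p53-/- cells 0 of the 10 were called, against 0.0953% of all genes, and 2 had an unadjusted p below 0.05. The lowest of their changes there was -0.68, and the sums were 17489 to 18484 untreated and 17426 to 17929 treated. The sum of 9 fibroblast markers was 402 to 453 in mock R1E arrays, 456 to 505 after adriamycin and 441 to 492 after UV, and 2 were called higher and 1 lower with adriamycin and 3 higher with UV. In p53-/- cells that sum was 2198 to 2764 untreated and 1893 to 2387 treated. The sum of 10 primitive endoderm markers was 1174 to 1234 in mock R1E arrays, 946 to 1079 after adriamycin and 900 to 1137 after UV, with 4 called lower and 1 higher with adriamycin and 3 lower with UV. In p53-/- cells it was 2788 to 3025 untreated and 2033 to 2471 treated, without overlap. No fibroblast or endoderm marker was called there, and 1 and 5 of them had an unadjusted p below 0.05. The share of all genes with an unadjusted p below 0.05 was not counted, so counts of that kind have no background here. These are bulk cultures, in which fewer cells of a type and less mRNA per cell cannot be told apart, and the part of these markers in the results was not tested.

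Promoter windows are shown first because the later results are set against them. RefSeq promoters of build GRCm38.p6, from 250 bases before to 50 bases after the gene start, were available for 47 of the 56 named genes. They were searched on both strands for 4 motifs. CARE, the C/EBP-ATF response element that ATF4 dimers bind, was searched as TGATGNAA. ERSE, the ER stress response element of ATF6 with NF-Y, was searched as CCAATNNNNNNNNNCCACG, ERSE-II as ATTGGNCCACG, and UPRE, an element of XBP1 and ATF6, as TGACGTGG. ERSE and ERSE-II share the CCACG end but not the spacing. A match is a description of letters, not evidence that a factor binds there.

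CARE letters occurred in 12 of the 47 promoters, against 4.51% of the promoters of 27025 genes. They were found in 7 of 17 promoters of amino acid supply and tRNA charging genes (Asns, Pycr1, Slc1a4, Slc7a11, Gars, Tars and Yars), in 3 of 4 feedback and output genes (Chac1, Trib3 and Vldlr), in Nupr1, and in 1 of 13 chaperone and degradation genes (Herpud1). The windows below lie before the gene start, on the gene's strand, with the CARE letters of either orientation in capitals. Asns, asparagine synthetase, and Chac1, a glutathione-degrading enzyme, are well-known ATF4 targets. Nupr1, Vldlr and Tars, for threonyl-tRNA synthetase, are shown because their mRNA changed most after adriamycin in R1E cells among the other genes whose letters lie wholly before the start, and Gars, for glycyl-tRNA synthetase, because it was the only measured gene with the letters that was not called there.
Asns, chr6:7693210-7693252, minus strand: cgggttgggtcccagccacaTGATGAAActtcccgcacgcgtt
Chac1, chr2:119351029-119351076, plus strand: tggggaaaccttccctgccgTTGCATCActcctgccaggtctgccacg
Nupr1, chr7:126625553-126625600, minus strand: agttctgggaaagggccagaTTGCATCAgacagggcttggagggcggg
Vldlr, chr19:27216800-27216847, plus strand: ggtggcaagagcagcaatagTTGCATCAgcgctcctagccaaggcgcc
Tars, chr15:11399659-11399693, minus strand: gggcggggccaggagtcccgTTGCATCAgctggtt
Gars, chr6:55037951-55037998, plus strand: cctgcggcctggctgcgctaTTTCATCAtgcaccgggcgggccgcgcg

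ERSE letters occurred in 7 of 13 promoters of chaperone and degradation genes (Hspa5, Hsp90b1, Calr, Canx, Pdia6, Dnajc3 and Creld2), in no other named gene with a promoter, and in 0.137% of all genes. ERSE-II occurred in Herpud1 alone, against 0.0444% of all genes, and UPRE letters occurred in none of the 47, against 0.714%. Below are Hspa5 (BiP, the main ER chaperone), which was called lower after adriamycin, Canx and Dnajc3, called higher after it, Creld2, called higher after UV, and both elements of Herpud1, which carries CARE and ERSE-II at separate positions. Capitals mark the whole ERSE or ERSE-II match, the unconstrained spacer included, or the CARE letters.
Hspa5 ERSE, chr2:34772005-34772063, plus strand: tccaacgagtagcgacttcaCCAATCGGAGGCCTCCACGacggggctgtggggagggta
Canx ERSE, chr11:50325780-50325838, minus strand: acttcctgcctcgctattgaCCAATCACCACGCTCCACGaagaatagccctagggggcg
Dnajc3 ERSE, chr14:118937807-118937865, plus strand: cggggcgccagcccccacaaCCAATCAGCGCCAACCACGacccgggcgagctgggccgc
Creld2 ERSE, chr15:88819500-88819558, plus strand: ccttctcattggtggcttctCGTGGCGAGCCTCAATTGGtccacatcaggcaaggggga
Herpud1 CARE, chr8:94386297-94386344, plus strand: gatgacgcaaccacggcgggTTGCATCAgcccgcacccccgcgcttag
Herpud1 ERSE-II, chr8:94386357-94386407, plus strand: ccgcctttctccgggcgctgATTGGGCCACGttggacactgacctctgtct

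The first question was what adriamycin did to these mRNAs in R1E cells. Of the 54 genes, 39 fell, 7 rose and 8 were not called, while over all genes 25.6% were called lower and 22.1% higher. The median change was -0.33, against -0.02 over all genes. The treated and mock arrays did not overlap for 40 genes that were lower and 6 that were higher, against 24.8% and 20.8% of all genes. With each array centred on its median, 45 genes were lower and 4 higher, and the share of higher genes among all calls moved from 46.3% to 25.4%. The fall was spread over the ATF4 side of the pathway and included Xbp1 and Atf6 of the other branches, whereas the ER chaperones went both ways. The 10 stem cell markers, which lie outside the pathway, had a median change of -0.56.

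**Figure D1:**
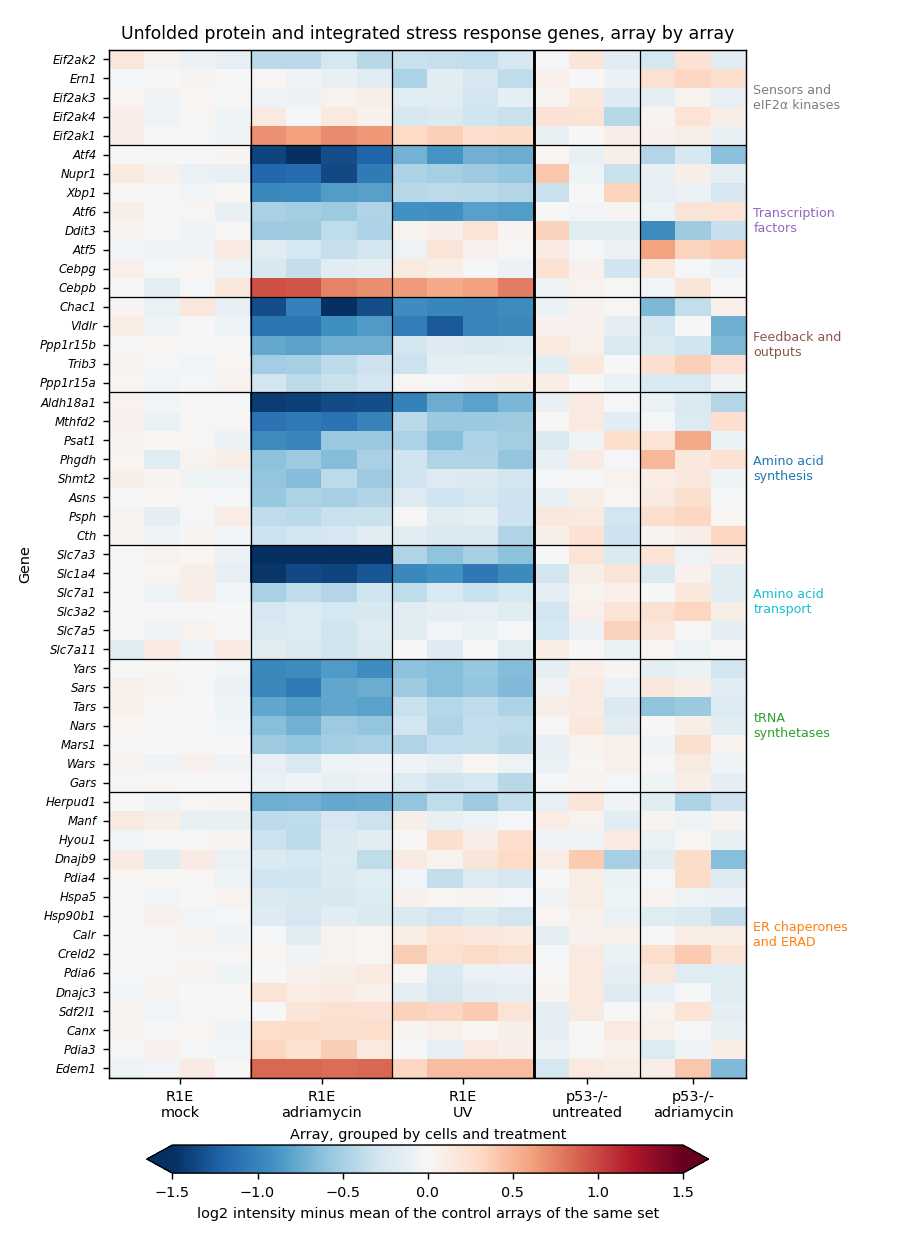
Level of each of the 54 genes (rows, grouped by role) on each of the 18 arrays (columns, grouped by cells and treatment), coloured by the log2 difference from the mean of that set's control arrays. The blue block in the R1E adriamycin columns covers nearly all amino acid and tRNA synthetase genes and is paler in the UV columns, while Edem1, Cebpb and Eif2ak1 are red in both.

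Among the transcription factors, 7 of 8 fell after adriamycin and 1 rose. Atf4, the central factor of the integrated stress response, read 8.90, 8.93, 8.94 and 8.98 on mock arrays, 7.56, 7.45, 7.60 and 7.73 after adriamycin and 8.23, 8.04, 8.22 and 8.19 after UV. The 3 groups did not overlap, with UV between mock and adriamycin. Atf4 fell 2.55-fold with adriamycin (log2 change -1.35 ± 0.06 SE, adjusted p = 1.74e-11) and 1.70-fold with UV (-0.77 ± 0.06, adjusted p = 3.49e-08). Nupr1, a small stress-induced chromatin protein, read 7.13, 7.05, 6.89 and 6.88 in mock, 5.81, 5.83, 5.64 and 5.93 after adriamycin and 6.52, 6.49, 6.44 and 6.41 after UV. It showed the same order of groups, again without overlap, and fell 2.28-fold with adriamycin and 1.44-fold with UV.

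Xbp1, the factor of the IRE1 branch, read 9.44, 9.40, 9.36 and 9.43 in mock, 8.44, 8.46, 8.57 and 8.59 after adriamycin and 8.99, 9.02, 9.01 and 8.97 after UV. It fell 1.86-fold (-0.90 ± 0.05) and 1.33-fold (-0.41 ± 0.05), so adriamycin again lay below UV. Atf6, the membrane-bound factor, had the opposite order, with 8.48, 8.40, 8.41 and 8.29 in mock, 7.91, 7.87, 7.85 and 7.94 after adriamycin and 7.49, 7.47, 7.58 and 7.56 after UV. Its UV arrays were the lowest of the 3 groups (UV -0.87 ± 0.05, adriamycin -0.50 ± 0.05), and adriamycin exceeded UV by 0.37 ± 0.05 (adjusted p = 2.43e-05). Atf6 spans 164 kb, and only it and Slc7a11 among the 54 genes exceed 100 kb. Of all 2298 genes above 100 kb, 48.1% were lower after UV, against 17.7% of the 17618 shorter ones, and the part of gene length in the change of Atf6 was not tested.

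Ddit3 (CHOP), which promotes cell death under lasting ER stress, read 6.51, 6.47, 6.40 and 6.48 in mock, 5.92, 5.93, 6.09 and 6.0 after adriamycin and 6.52, 6.56, 6.65 and 6.51 after UV. The adriamycin arrays lay below all others (-0.48 ± 0.05, adjusted p = 9.82e-07), while UV and mock overlapped (0.10 ± 0.05, adjusted p = 0.160). Atf5 (-0.27 ± 0.06) and Cebpg (-0.23 ± 0.06), partners and relatives of ATF4, also fell with adriamycin and were not called with UV (0.05 and 0.03). Cebpb, a C/EBP factor, was the 1 that rose, from 6.34, 6.21, 6.33 and 6.52 in mock to 7.30, 7.29, 7.09 and 7.05 after adriamycin and 6.99, 6.92, 6.97 and 7.12 after UV. Its treated arrays all lay above its mock arrays, the adriamycin change was 1.78-fold (0.83 ± 0.07), the UV change 0.65 ± 0.07, and the 2 treatments overlapped (difference 0.18 ± 0.07, adjusted p = 0.0628).

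The sensors and kinases did not share a direction after adriamycin, with 1 higher, 1 lower and 3 not called. Eif2ak1, the heme-regulated kinase, read 8.41, 8.28, 8.30 and 8.25 in mock, 9.0, 8.92, 9.02 and 8.96 after adriamycin and 8.61, 8.67, 8.57 and 8.59 after UV. It rose 1.59-fold (0.66 ± 0.05) and 1.23-fold (0.30 ± 0.05), and no 2 groups overlapped. Eif2ak4, the amino acid sensor GCN2, read 7.51, 7.36, 7.42 and 7.34 in mock, 7.54, 7.39, 7.56 and 7.47 after adriamycin and 7.15, 7.20, 7.11 and 7.08 after UV. Its adriamycin arrays overlapped mock (0.08 ± 0.05, adjusted p = 0.250) and its UV arrays lay below both (-0.27 ± 0.05).

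Ern1, the IRE1 sensor, read 6.66, 6.68, 6.73 and 6.68 in mock, 6.70, 6.62, 6.58 and 6.51 after adriamycin and 6.22, 6.52, 6.43 and 6.30 after UV. It was called lower after UV only (-0.32 ± 0.06, against -0.09 ± 0.06 with adriamycin), and the difference between the treatments was itself called (0.23 ± 0.06, adjusted p = 0.00690). Eif2ak3 (PERK) likewise fell with UV (-0.19 ± 0.05) and was near 0 with adriamycin (0.003 ± 0.05), with a called difference of 0.20 ± 0.05. Eif2ak2 (PKR) fell with both (-0.37 ± 0.06 and -0.33 ± 0.06) and the treatments overlapped. After UV, 4 of the 5 sensors were therefore lower and Eif2ak1 higher. The sensors span 90 kb (Ern1), 87 kb (Eif2ak4), 85 kb (Eif2ak1), 61 kb (Eif2ak3) and 32 kb (Eif2ak2). For adriamycin minus UV, the median over all genes above 100 kb was 0.22, against -0.06 for shorter ones. All 5 sensors belong to the shorter class, so this cut does not separate them. The part of gene length in the sensor changes was not tested.

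All 5 feedback and output genes fell after adriamycin, with a median change of -0.76. Chac1 read 7.65, 7.52, 7.79 and 7.50 in mock, 6.28, 6.60, 6.05 and 6.29 after adriamycin and 6.68, 6.63, 6.63 and 6.67 after UV. It fell 2.48-fold (-1.31 ± 0.09) and 1.95-fold (-0.96 ± 0.09). Vldlr, a lipoprotein receptor induced through ATF4 in other settings, read 6.91, 6.74, 6.80 and 6.72 in mock, 5.70, 5.70, 5.87 and 5.94 after adriamycin and 5.76, 5.53, 5.80 and 5.83 after UV. The treatments overlapped for Vldlr, at 1.98-fold and 2.09-fold below mock (difference 0.07 ± 0.07, adjusted p = 0.457).

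Trib3, the pseudokinase that restrains ATF4, read 8.60, 8.53, 8.51 and 8.58 in mock, 8.04, 8.06, 8.16 and 8.24 after adriamycin and 8.24, 8.42, 8.42 and 8.41 after UV. It fell by 0.43 ± 0.06 with adriamycin. The UV change of -0.18 ± 0.06 (adjusted p = 0.0173) was not called without UV replicate 1, its lowest array (-0.14, adjusted p = 0.0598). Ppp1r15a (GADD34), which with a phosphatase reverses eIF2 phosphorylation, read 7.36, 7.29, 7.30 and 7.39 in mock, 7.06, 6.95, 7.01 and 7.04 after adriamycin and 7.35, 7.30, 7.40 and 7.43 after UV. Only its adriamycin arrays stood apart (-0.32 ± 0.05, UV 0.03 ± 0.05). Ppp1r15b (CReP), its constitutive counterpart, fell by 0.76 ± 0.04 with adriamycin and by 0.22 ± 0.04 with UV on the brighter of 2 probes. The dimmer probe gave -0.26 and 0.29, so for UV the probes went opposite ways.

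Every one of the 8 measured genes of amino acid synthesis and one-carbon supply fell after adriamycin, with a median of -0.56. Asns read 12.07, 12.10, 12.08 and 12.04 in mock, 11.51, 11.60, 11.58 and 11.62 after adriamycin and 11.86, 11.77, 11.82 and 11.76 after UV, so the groups were fully separated (-0.49 ± 0.05 and -0.27 ± 0.05). Aldh18a1, which makes the precursor of proline, fell furthest of these, from 9.55, 9.46, 9.53 and 9.48 in mock to 8.09, 8.11, 8.16 and 8.18 after adriamycin and 8.49, 8.76, 8.71 and 8.82 after UV. That is 2.59-fold (-1.37 ± 0.06) and 1.76-fold (-0.81 ± 0.06).

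Mthfd2, the mitochondrial folate enzyme, fell 2.10-fold with adriamycin (-1.07 ± 0.05) and 1.43-fold with UV (-0.51 ± 0.05). The 3 enzymes of serine synthesis fell together with adriamycin, namely Phgdh (-0.57 ± 0.07), Psat1 (-0.76 ± 0.09) and Psph (-0.36 ± 0.07). Psat1 read 10.48, 10.46, 10.45 and 10.34 in mock, 9.49, 9.45, 9.87 and 9.88 after adriamycin and 9.96, 9.80, 9.96 and 9.91 after UV, so that the treatments overlapped. Psph was the 1 gene of the 8 not called after UV (-0.15 ± 0.07, adjusted p = 0.0779). Shmt2 (-0.55 and -0.25), which feeds serine into the folate cycle, and Cth (-0.26 with both), the last step to cysteine, were lower with both treatments.

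Of the 6 amino acid transporters, all fell after adriamycin and 4 after UV. Slc7a3, a carrier of arginine and lysine, had the largest change of the 54 genes, from 10.66, 10.72, 10.69 and 10.57 in mock to 8.64, 8.72, 8.76 and 8.75 after adriamycin and 10.21, 10.05, 10.17 and 10.04 after UV. The adriamycin arrays lay far below the other 8. The fall was 3.84-fold (-1.94 ± 0.05, adjusted p = 5.90e-14) with adriamycin and 1.45-fold (-0.54 ± 0.05) with UV, a difference of -1.40 ± 0.05. Slc7a1, the other cationic carrier, fell by 0.40 ± 0.06 and 0.30 ± 0.06, with overlapping treatments.

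Slc1a4, a carrier of serine, alanine and other neutral amino acids, read 8.55, 8.56, 8.63 and 8.41 in mock, 7.08, 7.19, 7.17 and 7.26 after adriamycin and 7.58, 7.63, 7.47 and 7.59 after UV. It fell 2.58-fold and 1.96-fold, the second largest of the transporter changes with adriamycin and the largest with UV. Slc3a2, the heavy chain of several exchangers, read 11.65, 11.66, 11.66 and 11.65 in mock, 11.40, 11.45, 11.39 and 11.41 after adriamycin and 11.49, 11.51, 11.53 and 11.47 after UV. The shift was small, -0.24 ± 0.04 and -0.15 ± 0.04, but no treated array reached a mock array. Slc7a5, its leucine-carrying partner, fell by 0.23 ± 0.05 with adriamycin and was not called with UV (-0.08 ± 0.05).

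Slc7a11, the cystine carrier, was dim throughout, with 3.57, 3.88, 3.69 and 3.88 in mock, 3.57, 3.52, 3.45 and 3.53 after adriamycin and 3.76, 3.56, 3.72 and 3.57 after UV, where the median gene of an R1E array lay between 5.90 and 6.05. Its adriamycin arrays overlapped mock, and the call (-0.23 ± 0.07, adjusted p = 0.0129) was lost without mock replicate 2 (adjusted p = 0.0517).

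Of the 7 tRNA synthetases, 5 fell after adriamycin, namely Yars for tyrosine (-0.92 ± 0.05), Sars for serine (-0.89 ± 0.07), Tars for threonine (-0.80 ± 0.05), Nars for asparagine (-0.62 ± 0.05) and Mars1 for methionine (-0.53 ± 0.04). The same 5 fell less with UV, by 0.62, 0.61, 0.40, 0.37 and 0.40, and each differed between the treatments, although the difference of Mars1 (-0.13 ± 0.04, adjusted p = 0.0284) was lost when adriamycin replicate 1 or 2, or UV replicate 2 or 3, was left out (adjusted p = 0.0615 to 0.0806). Yars read 10.48, 10.50, 10.48 and 10.43 in mock, 9.50, 9.54, 9.62 and 9.54 after adriamycin and 9.85, 9.83, 9.90 and 9.82 after UV. Gars differed from them, with 11.07, 11.11, 11.10 and 11.10 in mock, 11.00, 11.04, 10.98 and 11.01 after adriamycin and 10.89, 10.80, 10.84 and 10.68 after UV. It was not called with adriamycin (-0.09 ± 0.05, adjusted p = 0.178), fell with UV (-0.29 ± 0.05) and was the only amino acid or synthetase gene called higher with adriamycin than with UV (0.21 ± 0.05, adjusted p = 0.00296). Wars, for tryptophan, was not called with either treatment (-0.12 ± 0.05 and -0.05 ± 0.05).

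The 15 chaperone and degradation genes were divided after adriamycin, with 7 lower, 5 higher and 3 not called, and a median of -0.03. Hspa5 read 10.53, 10.48, 10.52 and 10.58 in mock, 10.32, 10.29, 10.29 and 10.32 after adriamycin and 10.59, 10.56, 10.57 and 10.50 after UV. The adriamycin arrays were the lowest by a small margin (-0.22 ± 0.04, adjusted p = 0.000448), and UV overlapped mock (0.03 ± 0.04). Hsp90b1 (GRP94), the ER member of the HSP90 family, read 11.40, 11.44, 11.33 and 11.35 in mock, 11.19, 11.12, 11.21 and 11.16 after adriamycin and 11.16, 11.09, 11.16 and 11.10 after UV. It was lower with both treatments, by 0.21 ± 0.05 and 0.25 ± 0.05.

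Herpud1, which helps remove misfolded proteins from the ER, fell most in this group, from 8.64, 8.58, 8.66 and 8.69 in mock to 7.91, 7.92, 7.87 and 7.88 after adriamycin and 8.04, 8.26, 8.11 and 8.27 after UV. Its falls of 0.75 ± 0.06 and 0.47 ± 0.06 were of the size seen in the amino acid genes. Of the 13 genes of this group with a promoter window, it was the 1 with CARE letters. The part of these letters in its fall was not tested. Edem1, a mannosidase-like protein that marks glycoproteins for degradation, went the other way, from 8.47, 8.51, 8.67 and 8.54 in mock to 9.41, 9.40, 9.39 and 9.40 after adriamycin and 8.86, 9.01, 9.01 and 9.01 after UV. The 3 groups were fully separated, at 1.81-fold (0.85 ± 0.05) and 1.34-fold (0.43 ± 0.05) above mock.

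Canx, the lectin chaperone calnexin, and its partner Pdia3, a disulfide isomerase, rose with adriamycin by 0.26 ± 0.04 and 0.27 ± 0.06, and neither was called with UV (0.06 and 0.03). Pdia3 read 11.17, 11.23, 11.14 and 11.13 in mock, 11.49, 11.40, 11.53 and 11.31 after adriamycin and 11.17, 11.04, 11.30 and 11.26 after UV. Sdf2l1, an ER chaperone cofactor, rose to 8.77, 8.74, 8.82 and 8.62 with UV (0.31 ± 0.06), from 8.48, 8.39, 8.42 and 8.42 in mock. It read 8.43, 8.61, 8.65 and 8.65 with adriamycin (0.16 ± 0.06, adjusted p = 0.0364). With each array centred, the adriamycin calls of Pdia3 (0.14, adjusted p = 0.0704), Sdf2l1 (0.03, adjusted p = 0.635) and Dnajc3 (0.002, adjusted p = 0.970) were lost. The call of Dnajc3 was also lost without any one of mock replicates 1, 3 and 4 or adriamycin replicates 1, 2 and 3 (adjusted p = 0.0513 to 0.107), and that of Sdf2l1 without any one of mock replicates 2, 3 and 4 or adriamycin replicates 2, 3 and 4 (adjusted p = 0.0634 to 0.0995).

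Dnajb9, a co-chaperone of BiP, read 7.74, 7.47, 7.75 and 7.53 in mock, 7.41, 7.35, 7.41 and 7.23 after adriamycin and 7.75, 7.67, 7.80 and 7.92 after UV. It was lower with adriamycin (-0.27 ± 0.07) and not called with UV (0.17 ± 0.07, adjusted p = 0.0762). Hyou1, an exchange factor of BiP, fell with adriamycin (-0.28 ± 0.06) and was not called with UV (0.15 ± 0.06, adjusted p = 0.0646). Manf, a secreted ER stress protein, had -0.34 ± 0.07 and -0.03 ± 0.07. Creld2, another ER stress protein, rose only with UV (0.28 ± 0.05, against 0.01 ± 0.05), and the treatments differed by -0.27 ± 0.05 (adjusted p = 0.000250). Calr, the soluble partner of calnexin, was called with UV (0.16 ± 0.05, adjusted p = 0.0269), a call that was lost with each array centred (0.08, adjusted p = 0.252) and without any one of mock replicate 1, mock replicate 4, UV replicate 2 or UV replicate 3. Dnajc3, a co-chaperone, was 0.13 ± 0.05 with adriamycin and fell with UV (-0.17 ± 0.05). The isomerases Pdia4 (-0.25 ± 0.06 and -0.21 ± 0.06) and Pdia6 (0.07 ± 0.06 and -0.10 ± 0.06, neither called) complete the group. A dimmer probe of Pdia4 gave -0.41 and -0.46. In p53-/- cells the brighter Pdia4 probe gave 0.02 and the dimmer one -0.61.

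**Figure D2:**
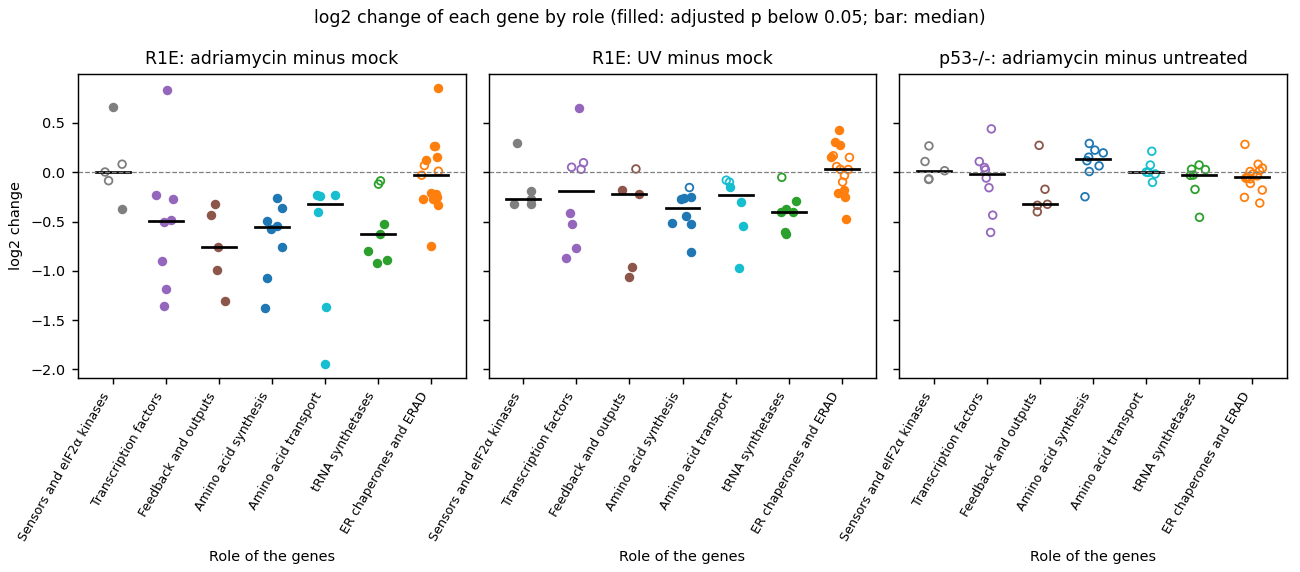
Change of each gene on the log2 scale (vertical axis), by role (horizontal axis), for adriamycin in R1E, UV in R1E and adriamycin in p53-/- cells (panels left to right). Filled points have an adjusted p below 0.05 and bars are medians. In the R1E panels the amino acid and synthetase points lie below 0 and the chaperone points on both sides of it, while in the p53-/- panel no point is filled.

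The contrast between the ATF4 targets and the chaperones was also taken as a single value. The 21 genes of amino acid supply and tRNA charging had a median change of -0.55 after adriamycin in R1E, all 21 below 0 and 19 of them called lower. Their median lay 0.52 below that of the 15 chaperone and degradation genes on the log2 scale (gap -0.52). This describes the lists and carries no test. Because both medians come from the same arrays, the gap does not move when arrays are centred.

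The UV comparison in R1E uses the same mock arrays as that of adriamycin, so their likeness is not independent. With UV, 33 of the 54 genes fell, 6 rose and 15 were not called, against 21.2% lower and 22.6% higher over all genes. The median change was -0.24, against 0.03. The arrays did not overlap for 32 lower and 6 higher genes, against 20.2% and 20.6% of all genes. By role, UV lowered 17 of the 21 amino acid and synthetase genes (median -0.37) and none was higher. Of the chaperone and degradation genes 4 were higher and 4 lower, with a median of 0.03 and a gap of -0.40 between the lists. Among all calls, 51.6% were higher, and 35.3% with each array centred.

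Adriamycin was then tested directly against UV. With adriamycin 32 of the 54 genes were lower and 11 higher, against 22.2% and 19.8% of all genes. Lower were 14 of the 21 amino acid and synthetase genes, 6 of 8 transcription factors, 4 of 5 feedback genes and 8 of 15 chaperone and degradation genes. Higher were Eif2ak1, Eif2ak3, Eif2ak4 and Ern1 among the sensors, Atf6, Gars, and the chaperone and degradation genes Edem1, Canx, Pdia3, Pdia6 and Dnajc3. The call of Pdia6 was lost with each array centred (0.12, adjusted p = 0.0905) and without some single arrays. Among the genes called lower, Mars1, Psat1, Psph, Slc7a5 and Sdf2l1 also lost their calls without some single arrays. The median gap between the ATF4 targets and the chaperones was -0.07 here. The share of higher genes among all calls was 47.2%, and 34.7% with each array centred.

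**Figure D3:**
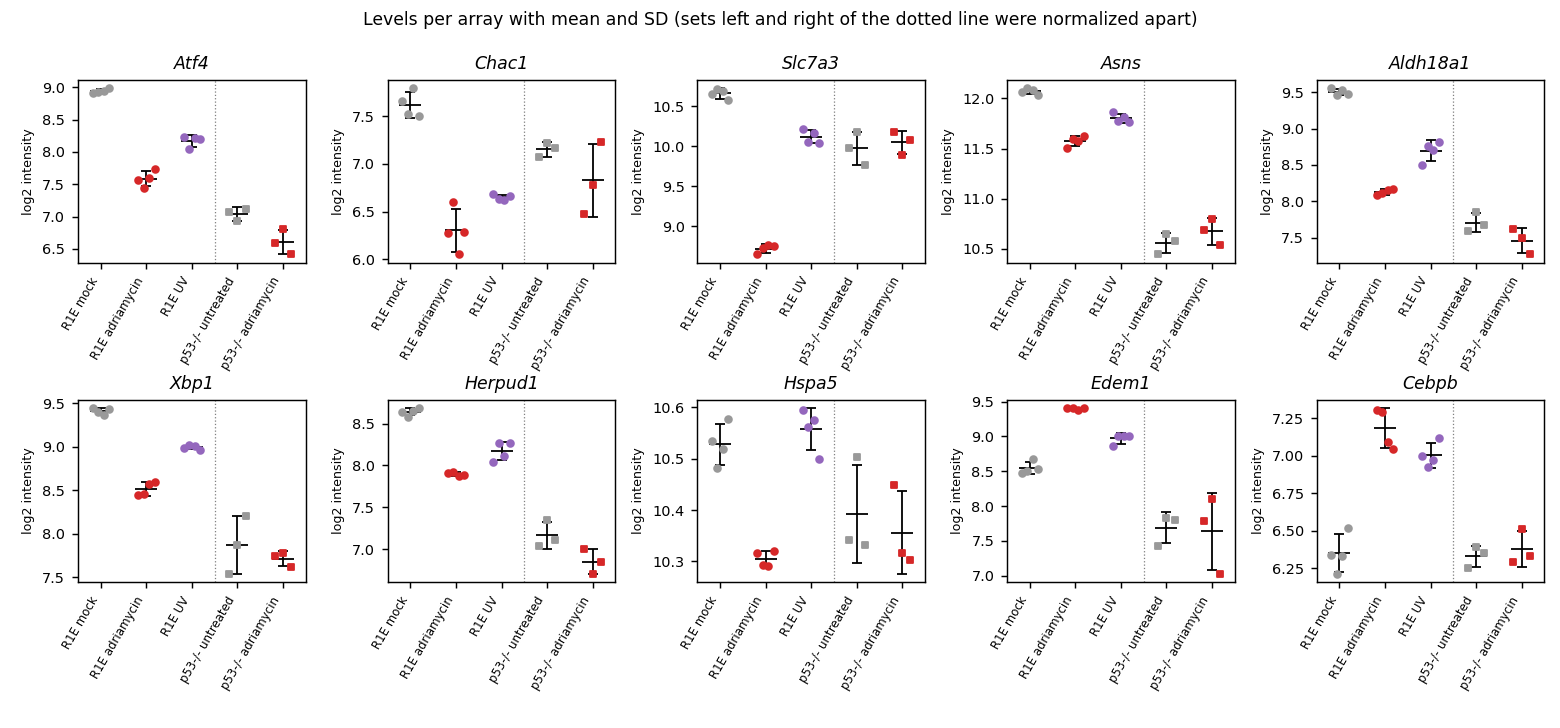
Log2 intensity of selected genes on every array (points), with the mean and SD of each group, R1E groups to the left of the dotted line and p53-/- groups, normalized separately, to its right. Atf4, Slc7a3 and Aldh18a1 step down from mock through UV to adriamycin in R1E cells, and Edem1 steps up, without overlap between the R1E groups.

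The p53-/- cells addressed whether adriamycin had the same effect there. Of the 54 genes, 0 were called (limma, 6 arrays), as with each alternative setting, and 8 had an unadjusted p below 0.05. No share of all genes was counted for the unadjusted p, so these 8 are given without a background. Over all genes 0.0953% were called, 19 in number, so that a count of 0 of 54 is near the background of this set. The arrays did not overlap for 4 lower and 5 higher genes, against 5.22% and 12.3% of all genes. The median change was -0.01, against 0.06 over all genes, and 28 genes were below 0 and 26 above. The median SE of the 54 changes was 0.136 here and 0.0553 in R1E, so a change of a given size was harder to call here.

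Ddit3 and Atf4 had the lowest values among the factors in p53-/- cells, and neither passed. Ddit3 read 6.65, 6.12 and 6.14 untreated and 5.36, 5.77 and 5.95 with adriamycin (-0.61 ± 0.18 SE, 95% confidence interval -1.01 to -0.21, adjusted p = 0.241). Atf4 read 7.08, 6.93 and 7.12 untreated and 6.60, 6.80 and 6.42 with adriamycin (-0.43 ± 0.14, interval -0.73 to -0.14, adjusted p = 0.252). For both genes every treated array lay below every untreated one. Atf5 had 0.44 ± 0.13 (adjusted p = 0.241), the largest positive value. The 5 feedback and output genes had a median of -0.32 in p53-/- cells, with 4 below 0 and 1 above, and 0 were called. Trib3, the 1 above, read 6.48, 6.79 and 6.63 untreated and 6.88, 6.99 and 6.84 with adriamycin, without overlap. Chac1 read 7.07, 7.22 and 7.17, then 6.47, 6.78 and 7.23, with overlap. Ppp1r15b had -0.40 on its brighter probe and 0.02 on the dimmer one.

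Amino acid genes in p53-/- cells had a median of 0.03, with 13 of 21 above 0. Slc7a3 read 9.98, 10.18 and 9.76 untreated and 10.17, 9.89 and 10.07 with adriamycin (0.07 ± 0.14, interval -0.24 to 0.39). Asns read 10.44, 10.64 and 10.58, then 10.69, 10.79 and 10.53 (0.12 ± 0.13), and Mthfd2 changed by 0.01 ± 0.15. Within this group Tars had the lowest value (-0.46 ± 0.15, adjusted p = 0.269) and Phgdh the highest (0.29 ± 0.14, adjusted p = 0.441). The groups overlapped for Slc7a3 and Asns, and these intervals leave small changes either way possible.

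The chaperone and degradation genes had a median of -0.05 in p53-/- cells, with 10 of 15 below 0 and 0 called. Treated and untreated arrays were apart for 2 lower genes and 1 higher gene. The lower genes were Herpud1 (-0.31 ± 0.14, adjusted p = 0.412) and Hsp90b1 (-0.25 ± 0.12, adjusted p = 0.456), both also lower with adriamycin in R1E. The higher gene was Creld2 (0.28 ± 0.13, adjusted p = 0.419), which was not called with adriamycin in R1E. Hspa5 read 10.34, 10.50 and 10.33 untreated and 10.45, 10.32 and 10.30 with adriamycin. Edem1 read 7.43, 7.83 and 7.80, then 7.79, 8.10 and 7.02, a spread wide enough that its interval ran from -0.56 to 0.45. The gap between the ATF4 targets and the chaperones was 0.08, and 0.03 without untreated replicate 3. That array stood apart from its group, with deviations from the group means that correlated at -0.81 and -0.71 with those of replicates 1 and 2 across all genes. Deviations from a mean of 3 are tied to each other, so this describes the arrays and is no test.

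Whether adriamycin acted differently in the 2 kinds of cells was tested as the difference of the effects, R1E minus p53-/-, with each set's own spread. It was called lower for 23 of the 54 genes and higher for 3, against 11.4% and 10.4% of all genes. Without p53-/- untreated replicate 3, 24 were lower and 3 higher. In this comparison the genotype cannot be told apart from the cell line, the array set and the processing tool, and the markers of other cell types are given above for each set. Of the amino acid and synthetase genes 14 of 21 were called lower and all 21 were below 0, with a median of -0.60, while of the chaperone and degradation genes Herpud1 was lower, Edem1 higher and 13 not called.

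Slc7a3 had the largest difference (-2.02 ± 0.15, adjusted p = 1.32e-07), followed by Slc1a4 (-1.26 ± 0.16), Nupr1 (-1.13 ± 0.19), Aldh18a1 (-1.13 ± 0.15) and Mthfd2 (-1.08 ± 0.16). Atf4 itself differed by -0.92 ± 0.15 (adjusted p = 0.000234), its value in p53-/- cells being negative but smaller in size. Serine synthesis differed as a whole, with Psat1 at -0.99, Phgdh at -0.86 and Psph at -0.56. Edem1 (0.91 ± 0.24), Cebpb (0.78 ± 0.15) and Eif2ak1 (0.65 ± 0.14) were the 3 that were higher in R1E.

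Ddit3 did not pass, at 0.13 ± 0.19 (interval -0.28 to 0.54, adjusted p = 0.717). Its adriamycin values were -0.48 in R1E and -0.61 in p53-/- cells, side by side, and the interval leaves room for a difference either way. Tars (-0.34 ± 0.16, adjusted p = 0.151) and Hspa5 (-0.19 ± 0.13, adjusted p = 0.376) did not pass either. The calls of Herpud1 (-0.43 ± 0.15, adjusted p = 0.0466) and Slc3a2 (-0.46 ± 0.15, adjusted p = 0.0492) were at the edge of the threshold and were lost without p53-/- untreated replicate 1 (adjusted p = 0.151 and 0.202), and without most other single arrays. Those of Vldlr (-0.65 ± 0.19) and Psph were lost without p53-/- adriamycin replicate 1 (adjusted p = 0.0753 and 0.0881) or replicate 2 (0.0973 and 0.0947).

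**Figure D4:**
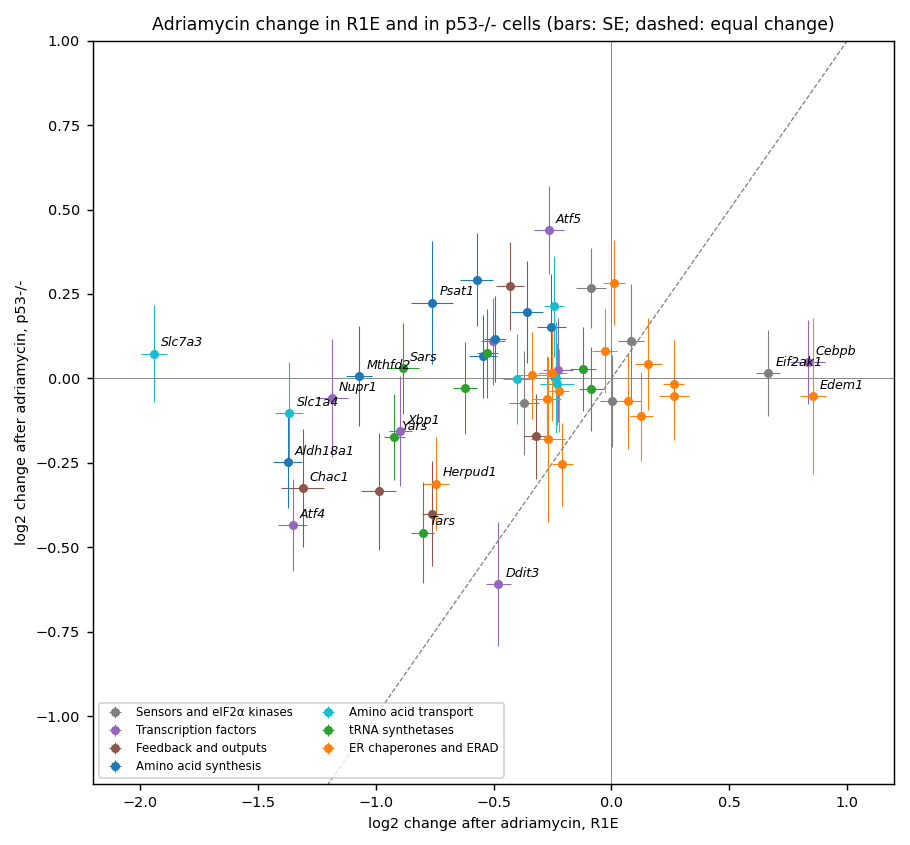
Adriamycin change of each gene in R1E cells (horizontal axis, log2) against that in p53-/- cells (vertical axis, log2), coloured by role, with SE bars and a dashed line of equal change. Slc7a3 lies furthest left, at -1.94 and 0.07, and Ddit3 and Tars lie low on both axes, nearer the dashed line.

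Other genes of the pathway, taken from lists kept apart from the 54, were counted for comparison. The shares to read them against are those of all genes, 25.6% lower and 22.1% higher with adriamycin in R1E and 21.2% and 22.6% with UV. Of 11 other tRNA synthetases, adriamycin in R1E lowered 7 and raised 1, and UV lowered 5. The largest falls with adriamycin included Lars, for leucine (-0.45 ± 0.05), and the 1 rise was Cars, for cysteine (0.34 ± 0.05). Of 15 other amino acid and ATF4-linked genes, adriamycin lowered 9 and raised 3, and UV lowered 8 and raised 2. Cbs, the first enzyme of transsulfuration, rose 3.46-fold with adriamycin and 2.69-fold with UV, and Ddit4, an mTORC1 inhibitor, rose 1.66-fold and 1.62-fold, whereas Gpt2, a mitochondrial alanine transaminase, fell 2.26-fold and 1.71-fold. Cth, which acts after Cbs, fell with both treatments as given above.

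Of 30 other genes of ER quality control, 7 fell and 6 rose with adriamycin, close to the shares of all genes, and 9 fell and 6 rose with UV. Sec24d, a coat protein of ER export, fell by 0.56 ± 0.05 and 0.63 ± 0.05, and Syvn1, a ubiquitin ligase of ER degradation, rose by 0.24 ± 0.06 and 0.38 ± 0.06. Of 11 genes of eIF2 and its exchange factor, 4 fell and 2 rose with adriamycin, and 4 fell and 3 rose with UV. Eif2s2, the beta subunit of eIF2, fell by 0.74 ± 0.06 and 0.56 ± 0.06, and Impact, an inhibitor of GCN2 activation, rose by 0.22 ± 0.05 and 0.32 ± 0.05. In p53-/- cells no gene of these 4 lists was called, and 0, 1, 3 and 0 had an unadjusted p below 0.05 (synthetases, amino acid genes, ER quality control and eIF2, in that order). These unadjusted counts too have no share of all genes beside them. Aars, Dars, Sec61g and Mbtps2 were not analysed here.

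Set against the promoter windows shown at the start, the 11 measured genes with CARE letters comprised 10 that fell after adriamycin in R1E and 0 that rose, with a median of -0.80. The 8 with ERSE or ERSE-II letters comprised 3 lower and 2 higher, with a median of -0.01, and Herpud1 is counted in both. The 27 genes with a promoter but none of these letters comprised 19 lower and 5 higher, with a median of -0.32. After UV the 3 medians were -0.47, -0.03 and -0.21. The letters alone did not mark a fall across the genome. Of all 565 measured genes with CARE letters, 19.3% were lower after adriamycin, against 26.0% of the 15047 without, and with UV the shares were 18.9% and 21.7%. Of all 30 measured genes with ERSE or ERSE-II letters, 26.7% were lower after adriamycin, against 25.8% of the 15582 without. With UV these shares were 23.3% and 21.6%. Other genes that fell with adriamycin had none of these letters in their window, among them Aldh18a1 (-1.37), Mthfd2 (-1.07) and Psat1 (-0.76), while the values of the genes with CARE letters ran from -1.37 to -0.09. These counts are descriptions, since the genes were listed for their known roles.

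**Figure D5:**
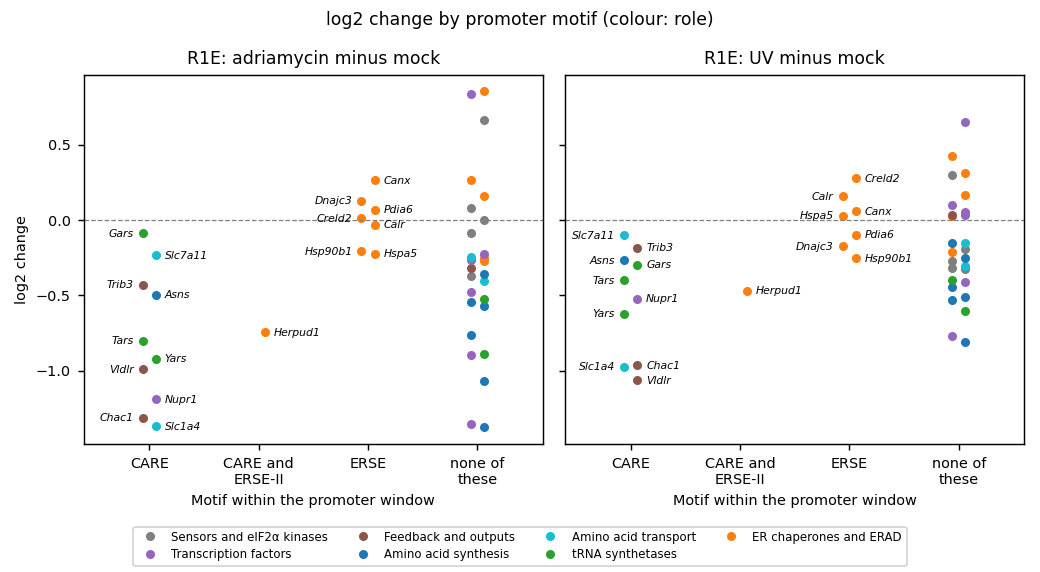
Change of each gene on the log2 scale (vertical axis) by the motif found in its promoter window (horizontal axis), coloured by role, for adriamycin (left) and UV (right) in R1E cells. The CARE points, that of Herpud1 included, lie below 0 with both treatments, whereas the ERSE points straddle 0 and genes without these letters lie on both sides.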

How the data were processed

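RNA from 18 arrays in 5 groups was analysed. The authors deposited log2 intensities for each probe. The submitters' processing notes name Affymetrix Expression Console 1.1 for the R1E set, and for the p53-/- set Partek 6.4 with RMA. The Expression Console algorithm and the genome build of the arrays are not given in the sources used here.

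Of 28853 probes, 28815 had values on all arrays, of which 21780 had 1 gene symbol in GEO's platform annotation, 1605 several and 5430 none. The brightest probe represented each of the 998 genes with several, leaving 19935 genes. Of the named probes 21689 matched the RefSeq table of GRCm38.p6 by Entrez ID, and 0 symbols changed.

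Comparisons were fitted on the deposited values in limma 3.58.1 (R 4.3.3) with lmFit and eBayes, with 12 arrays in the R1E fit and 6 in the p53-/- fit. No filter was set. The difference of effects used each set's own moderated variance with Satterthwaite degrees of freedom. The calling threshold was an adjusted p of 0.05 (Benjamini-Hochberg), and intervals are 95%. The script was tested on 5 simulated data sets with 200 changed genes per treatment. There 9.4% of the calls of the difference of effects were false, above the threshold of 0.05, and 30.6% with a fit shared over both sets. In the other comparisons 3.2% to 6.1% of calls were false. A 1.5-fold change was recovered in 17.4% of cases in p53-/- cells, 43.9% for the difference and 97.0% with adriamycin in R1E. The simulated 200 changed genes are far fewer than the 5110 called lower and 4397 called higher with adriamycin in R1E. These rates therefore need not hold for the deposited data. Replicate numbers were not used as pairs in the main fits. Deviations of same-numbered arrays correlated at -0.14 to 0.16 in R1E (12 pairs) and -0.10 to 0.19 in p53-/- (3 pairs). Such values cannot show whether arrays were paired. Some differently numbered R1E arrays correlated more strongly. Mock replicate 1 with adriamycin replicate 3 gave 0.39, and mock replicate 4 with adriamycin replicate 3 gave -0.42. Alternatives covered normalization, centring, dim genes, probe choice, the arrays in the fit, the eBayes prior, the replicate number as a block, each array left out, and 1 shared fit.

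Array values in R1E were given for a panel and for the 4 largest rises and falls called in each comparison. Those in p53-/- cells were given for only some of these genes. A few more genes were added after their values were seen (Yars and Gars with array values, Mthfd2 with its changes only). The genes, lists and panel were chosen with earlier results of these data known. Promoter windows are RefSeq's, of GRCm38.p6.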

Additional observations from a re-analysis of the deposited data

Results flagged for a closer look

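On 2 occasions an array lay far from the other 3 of its group. Trib3 read 8.24 on UV replicate 1 in R1E cells, with the nearest of the others at 8.41, and Edem1 read 8.86 on the same array, with the nearest at 9.01. The gap was 0.932 and 0.993 of the group's whole range. In all, 81 groups of 4 arrays were checked, and chance alone marks about 1 in 20 groups. Without that array the UV call of Trib3 was lost, as given above, and that of Edem1 was kept.

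The adriamycin effect differed between R1E and p53-/- cells for 26 of the 54 genes, by the test of the difference itself. On the log2 scale, as R1E minus p53-/-, the 23 negative values were those of Atf4 (-0.92), Atf5 (-0.71), Atf6 (-0.61), Xbp1 (-0.74), Nupr1 (-1.13), Trib3 (-0.70), Chac1 (-0.99), Vldlr (-0.65), Asns (-0.61), Psat1 (-0.99), Phgdh (-0.86), Psph (-0.56), Shmt2 (-0.61), Mthfd2 (-1.08), Aldh18a1 (-1.13), Slc3a2 (-0.46), Slc7a3 (-2.02), Slc1a4 (-1.26), Nars (-0.59), Yars (-0.75), Mars1 (-0.60), Sars (-0.92) and Herpud1 (-0.43). The 3 positive values were those of Eif2ak1 (0.65), Cebpb (0.78) and Edem1 (0.91).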

How the results depend on the processing

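Directions of the members' calls held under the alternatives run, except that of Ppp1r15b after UV, which was 0.037 (adjusted p = 0.766) with the mean of its probes in place of -0.22. With each array centred, 4 genes in place of 7 were higher after adriamycin in R1E, where centring moves every change down. The ATF4-target median minus the chaperone median was 0.025 to 0.096 in p53-/- cells and -0.719 to -0.482 for the difference of effects when arrays were left out in turn, where 0.025 and -0.719 are the values without p53-/- untreated replicate 3, and the cause was not tested. Over single arrays left out, genes lower numbered 38 to 39 with adriamycin in R1E, 33 to 34 with UV, 28 to 32 for adriamycin against UV and 19 to 24 for the difference, and genes higher 5 to 7, 5 to 7, 10 to 12 and 3. Quantile normalization gave 37 lower and 8 higher with adriamycin and 30 and 8 with UV. Some small changes (Slc7a5, Hsp90b1, Slc3a2, Pdia4) lost a call there. A fit shared over both sets gave 29 lower and 4 higher for the difference. Of its calls 30.6% were false in simulated data, which held a far smaller share of changed genes. With the replicate block, 39, 33, 30, 0 and 21 genes were lower and 5, 6, 11, 0 and 3 higher in the 5 comparisons (adriamycin, UV, adriamycin against UV, p53-/-, difference), and calls lost were of genes at the edge of the threshold (Dnajc3, Sdf2l1, Mars1, Slc3a2, Herpud1). Among all calls in p53-/- cells 15.8% were higher, and 4.17% with each array centred. Slc7a11, below the median gene, was the only one of the 54 left out by the filter on dim genes in R1E. The limits are 3 or 4 arrays a group, of unstated origin, 1 time and 1 dose per treatment, and 2 sets processed apart.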
